A study of Mus musculus with 54 samples.

Results

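Heat shock proteins and DnaJ chaperones were followed through adipocyte differentiation of 3T3-L1 cells, an established mouse preadipocyte line. The set holds every array probe whose gene symbol belongs to the small heat shock protein (Hspb), HSP70 and HSP110 (Hspa), HSP90 (Hsp90) or J protein (Dnaja, Dnajb, Dnajc) families, leaving out the endoplasmic reticulum (ER) HSP70 Hspa5. It held 75 of the 29922 probes, and these stood for 55 of 16637 genes. Of these, 64 probes and 49 genes had a mean level above the lower quartile of gene probes and were measured. The whole array had 12792 such genes. By family, the tested genes were 3 of 5 small heat shock proteins, 8 of 9 HSP70 genes, 2 of 2 HSP110 genes (Hspa4 and Hspa4l), 3 of 3 HSP90 genes, 4 of 4 Dnaja, 10 of 11 Dnajb and 19 of 21 Dnajc genes. The 6 genes without a measured probe were Dnajb7, Dnajc5g, Dnajc9, Hspa1a, Hspb3 and Hspb9. The filter lay at a mean log2 level of 6.07. The nearest probes outside it were the second Hspa4l probe at 6.04 and Dnajb7 at 6.01, and the nearest inside it were Dnajc5b at 6.63 and the second Dnajb12 probe at 6.65. Hspb1, Hspd1, Hspe1 and Hsph1 had no probe under those symbols and were not analysed here.

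The study had 3 arms of 18 arrays each. One arm was untreated cells taking their normal path of differentiation. The second received 0.5% DMSO, the vehicle, and the third received 2 µM prieurianin, a plant limonoid. RNA was taken at 0, 0.25, 0.5 and 1 h in the first hour, then at 2, 3 and 5 h, at 9, 12 and 15 h, at 24, 36 and 48 h, and in the late phase at 96, 144, 192, 240 and 288 h, with 1 array per arm and time. All arms were the same cell line obtained from a repository. The labels do not say when the differentiation stimulus was given to the treated arms, nor whether arrays came from separate cultures. Neighbouring times therefore stood in for replicates. The p-values of arm comparisons below measure the spread of arm differences between times. Those of changes over the course measure the spread of times within a phase. Either spread may be technical. Levels are log2(intensity + 16) after quantile normalisation, and fold changes are differences on that scale, which understate changes of dim genes. A gene is called where the limma adjusted p-value (Benjamini-Hochberg over the 12792 genes) is under 0.05.

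HSP70 proteins bind stretches of unfolded polypeptide in a cycle driven by ATP. J proteins deliver the substrate and stimulate ATP hydrolysis, and HSP110 proteins such as Hspa4 release the bound ADP so that the substrate can leave. HSP90 takes over partly folded clients, among them kinases and steroid receptors, and small heat shock proteins hold unfolded proteins without ATP. Heat or proteotoxic stress raises a subset of these genes through heat shock factor 1, unfolded protein in the ER raises another subset, and the remaining genes are expressed without stress. The hormone cocktail commonly used to start differentiation of 3T3-L1 cells includes a glucocorticoid, whose receptor is a client of HSP90.

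The cell type label was checked against marker lists. The mean log2 level of 8 adipocyte markers lay between 8.16 and 8.41 in untreated cells at 0 to 1 h and between 13.18 and 13.86 at 96 to 288 h. In the DMSO arm it went from 8.17 to 8.28 at the start to between 13.16 and 13.91 late, and in the prieurianin arm from 8.25 to 8.55 to between 10.23 and 14.03. In the late window 0 adipocyte markers were higher and 7 of 8 were lower with prieurianin than with DMSO (median log2 difference -1.62), and among fibroblast markers 2 of 6 were higher and 2 lower. The mean of the 2 measured epithelial markers also rose. Its medians went from 5.95 to 8.45 in untreated, 5.92 to 8.09 in DMSO and 5.83 to 7.61 in prieurianin cells. Late medians for 5 proliferation markers were 9.87, 9.67 and 10.32 in that order. In untreated cells the macrophage, endothelial and muscle lists went from 9.20 to 8.98, 8.88 to 9.12 and 7.95 to 8.08. Their part in the differences below was not tested. In bulk RNA, fewer cells of a type and less RNA per cell cannot be told apart. The prieurianin array at 192 h stood apart from its neighbours, and the array most like it was the untreated one at 144 h (r = 0.971). The untreated arm also stood apart from the other two arms for some members, as described below. Median intensities per array ran from 88 to 313, and 93 to 176 probes per array were saturated. Hspa8, the constitutive cytosolic HSP70, was saturated on 46 arrays and the tested Hsp90ab1 probe, for the constitutive cytosolic HSP90, on 38, so no change can be read for either.

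RefSeq promoters (GRCm38.p6, from 250 bases before to 50 bases after the start) were matched to 44 of the 55 genes, and 3 motifs were searched on both strands. The heat shock element with 3 units (GAA, TTC and GAA, each separated by 2 bases) was in 0 of 44 promoters and in 0.662% of 27025 promoters overall. Its 2-unit core GAANNTTC, which lies within the longer motif and reads the same on both strands, was in 7 of 44 (15.9%), against 9.04% overall. The 7 genes were Dnaja1, Dnaja4, Hspa1b, Hspa1a, Hspb3, Hspb8 and Dnajc5g. The ER stress element (CCAAT and CCACG, separated by 9 bases) was in 2 of 44 (4.55%), Hsp90b1 and Dnajc3, against 0.137% overall. The stretches below are shown because Dnaja1, Dnaja4, Hspa1b and Hsp90b1 differed in the comparisons that follow, and Dnajc3 is the other gene with the ER element. They are written 5′ to 3′ on the gene's strand, and capitals mark the motif. A match describes the letters and does not show that a factor binds there. The Dnaja1 stretch is chr4:40722332-40722363 (plus strand, bases -136 to -105 from the start), Dnaja4 chr9:54699457-54699526 (plus), Hspa1b chr17:34959323-34959354 (minus), Hsp90b1 chr10:86705521-86705668 (minus, with its second match on the opposite strand) and Dnajc3 chr14:118937815-118937857 (plus).
Dnaja1: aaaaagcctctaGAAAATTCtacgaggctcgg
Dnaja4: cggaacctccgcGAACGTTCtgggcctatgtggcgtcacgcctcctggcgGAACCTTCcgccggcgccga
Hspa1b: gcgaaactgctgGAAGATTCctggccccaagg
Hsp90b1: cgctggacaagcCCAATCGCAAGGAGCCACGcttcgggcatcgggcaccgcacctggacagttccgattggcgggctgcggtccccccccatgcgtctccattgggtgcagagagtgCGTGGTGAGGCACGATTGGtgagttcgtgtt
Dnajc3: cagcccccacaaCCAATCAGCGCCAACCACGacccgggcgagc

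In the control arms the chaperones did not move as a block during the first hours. From 0 to 1 h to 2 to 5 h, averaged over the untreated and DMSO arms, 2 members rose and 7 fell (of 49), where 24.4% of all genes were called, 11.2% higher and 13.2% lower. Dnajb4, a cytosolic J protein that partners HSP70, rose, and Hspa1b, the stress-inducible HSP70, fell in the same hours. On values as deposited, where the median of all genes fell by 0.41, the split was 1 higher and 24 lower, and with median centring it was 2 higher and 3 lower. The shares of all genes called under these scalings are not given, here or below. Such splits are thus not read as results about the members.

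Dnajb4 stood at 10.32 in untreated, 9.74 in DMSO and 9.79 in prieurianin cells at 0 h. At 1 h it was at 12.06, 11.81 and 11.96 in the same order. At 2 h it was at 11.76, 12.13 and 11.96. All 3 arms had thus climbed by 1 h, and they lay close together at that time. The control arms' rise to 2 to 5 h was 1.08 ± 0.27 on the log2 scale (SE; limma adjusted p = 0.0022), and it was called under each alternative processing and with each time left out. Dnajb1, the main J partner of HSP70 in the heat shock response, had its highest array of the course at 1 h in each arm, at 13.32, 13.56 and 13.48 against 12.62, 12.63 and 12.71 at 0 h, and as a window mean was not called.

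Hspa1b went the other way. At 0 h it stood at 11.39, 11.64 and 11.79 in untreated, DMSO and prieurianin cells. At 3 h it was at 10.26, 10.64 and 10.79. At 9 h it was back at 11.66, 11.79 and 11.90. The dip was present in every arm, and for the control arms it came to -0.77 ± 0.16 (limma adjusted p = 0.00037), called under each alternative and without each time. Its near-identical copy Hspa1a was not measured, and the array cannot be taken to tell the copies apart.

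Hspb8, a small heat shock protein that works with Bag3 in chaperone-assisted autophagy, fell by 0.52 ± 0.13 (limma adjusted p = 0.0029) at 2 to 5 h. Hspa12b, a distant HSP70 relative known from endothelial cells, fell by 1.36 ± 0.18 (limma adjusted p = 1.4e-07). Untreated Hspa12b levels were 10.01, 9.94, 9.82 and 9.73 at 0 to 1 h and 8.95, 8.26 and 8.32 at 2 to 5 h, so the groups did not overlap. The DMSO arm ran from 9.70 to 10.23 at the start and stood at 9.08, 8.24 and 8.36 at 2, 3 and 5 h. Of 4 endothelial markers, 1 was measured, so the part of such cells was not tested.

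At 9 to 15 h, 6 members were above and 7 below their 0 to 1 h level in the control arms, where 34.3% of all genes were called, 17.8% higher and 16.5% lower. On values as deposited the split was 4 higher and 8 lower. Hspa4l, an HSP110 nucleotide exchange factor, rose by 0.67 ± 0.10 (limma adjusted p = 2.6e-06), and Dnajc2, the J protein that docks on ribosomes, rose by 0.45 ± 0.09 (9.2e-05, limma). Dnaja3, the mitochondrial J protein, rose by 0.48 ± 0.13 (0.0027, limma), and Dnajb9, an ER J protein, by 0.53 ± 0.15 (0.0061, limma). These 4 kept their calls with each time left out. Lower were Hspb2 (-1.17 ± 0.22, limma adjusted p = 4.6e-05), a small heat shock protein best known from muscle, Hspb8 (-0.88 ± 0.13, 1.5e-06) and Hspa2 (-0.57 ± 0.12, 0.00014), the HSP70 known from the testis. Hspa12b was also still lower (-1.22, limma adjusted p = 7.8e-07), called under each alternative. The Hspb2 probe is dim, with a mean log2 level of 6.87. Of 4 skeletal muscle markers 2 were measured, and their part in the Hspb2 result was not tested.

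At 24 to 48 h, 6 members were higher and 8 lower, where 26.5% of all genes were called, 12.8% higher and 13.6% lower. As deposited, with a median of all genes at -0.22, the split was 0 higher and 19 lower, and with median centring 3 higher and 7 lower. Hspb2 (-1.30 ± 0.22) and Hspb8 (-0.86 ± 0.13) were still low, each called with every time left out. So was Hspa12b (-0.87, limma adjusted p = 0.00024), called under each alternative. Hspa1b was called lower again (-0.46, limma adjusted p = 0.032), and this call was lost without 0, 0.25, 0.5, 36 or 48 h. Hspa9, the mitochondrial HSP70, fell by 0.60 ± 0.17 (limma adjusted p = 0.0057), but this rested on the 48 h arrays, and without 48 h the difference was -0.28 (limma adjusted p = 0.23). Hspa12a, the other distant HSP70, stood 0.77 ± 0.19 higher (limma adjusted p = 0.0021), and on values as deposited it was not called.

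**Figure D1:**
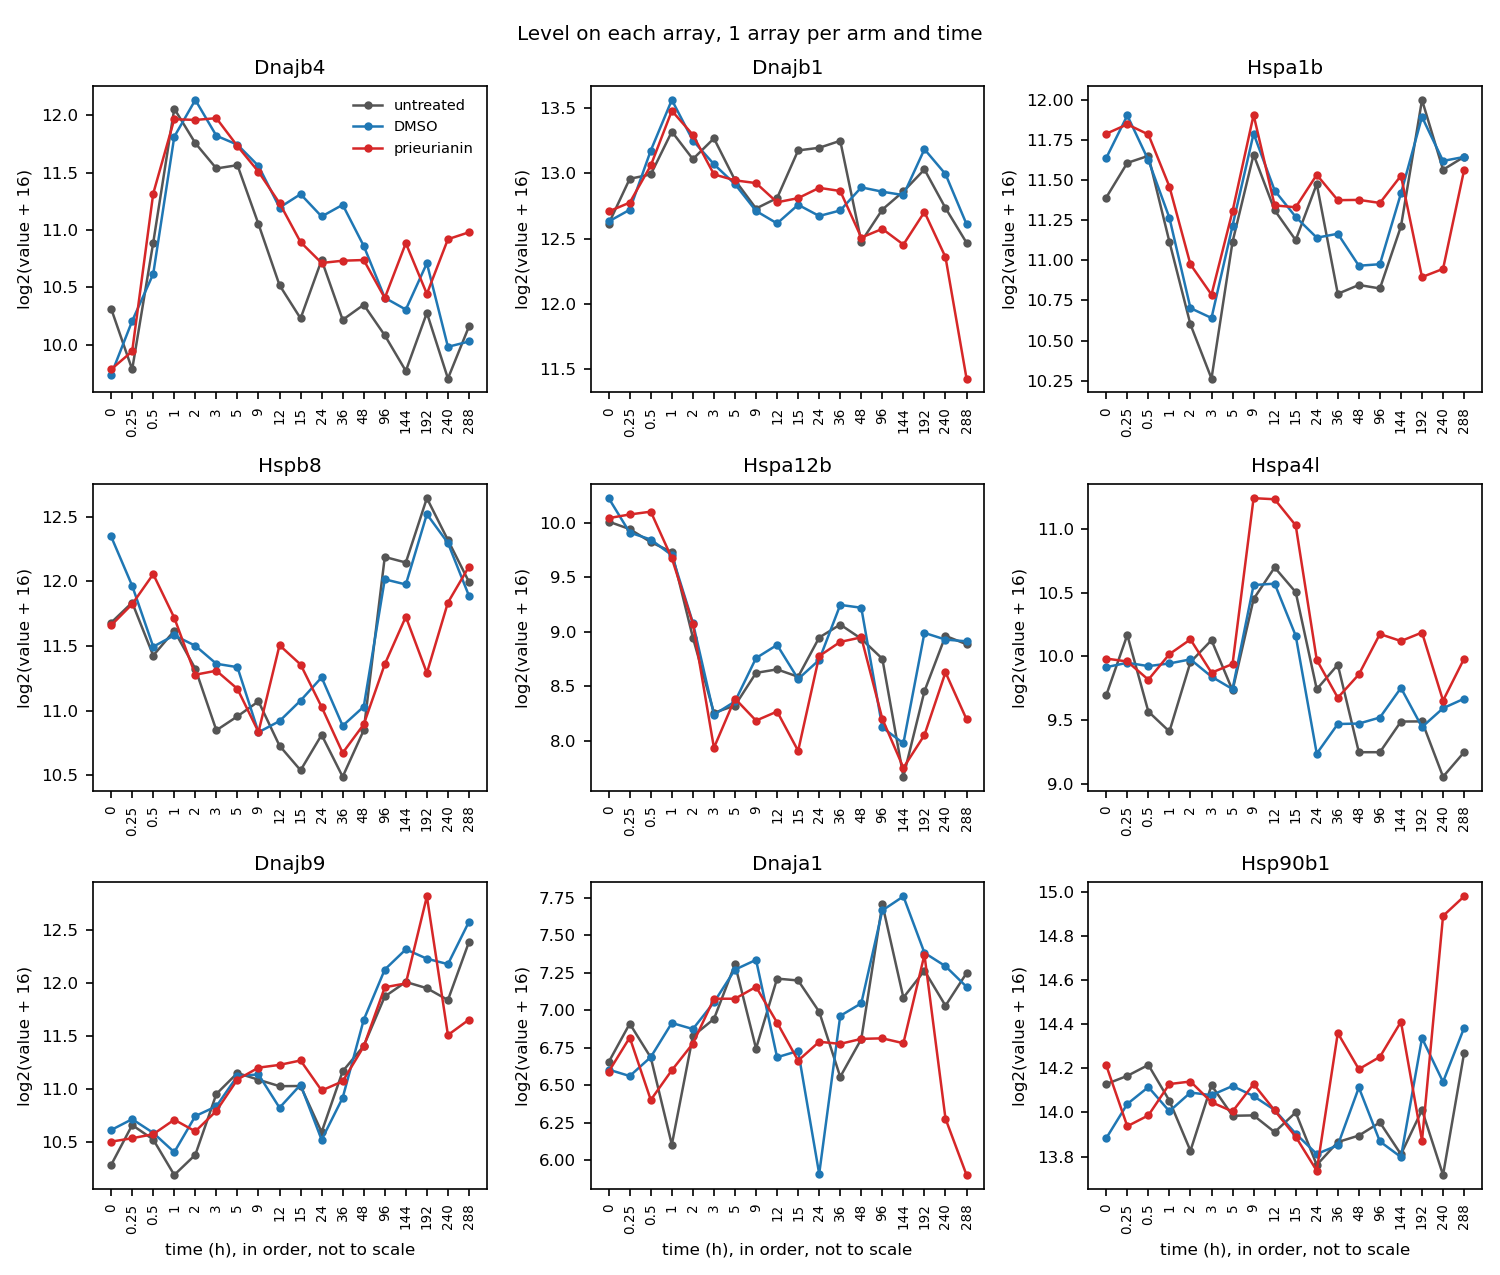
Level of 9 members, as log2(intensity + 16), at the 18 times of the course in their order (not to scale), with 1 array per point; untreated cells are grey, DMSO blue and prieurianin red. Dnajb4 climbs to between 11.81 and 12.06 at 1 h in every arm, Hspa1b dips at 2 to 3 h, Hspb8 dips through 48 h, and Dnaja1 and Dnajb1 lie lower in the prieurianin arm at the end.

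Over the whole course, 6 members rose and 3 fell in every arm, led by the ER J protein Dnajb9 and the distant HSP70 Hspa12b. From 0 to 1 h to 96 to 288 h, 11 members rose and 7 fell in untreated cells, where 35.4% of all genes were called, 17.5% higher and 18% lower. In DMSO cells 9 rose and 7 fell, where 33.3% were called (16.3% and 17.1%). In prieurianin cells 11 rose and 8 fell, where 32.6% were called (15.7% and 16.9%). The counts are near the shares of all genes. As deposited, the splits were 5 higher and 18 lower, 6 and 9, and 3 and 15, with medians of all genes at -0.40, -0.20 and -0.26. With median centring they were 12 and 4, 6 and 4, and 5 and 5. The 9 members called in each of the 3 arms had the same direction throughout: Dnaja3, Dnaja4, Dnajb2, Dnajb9, Dnajc4 and Hspa12a rose, and Dnajc12, Hspa12b and Hspb2 fell. The share of all genes called in all 3 arms was not counted, so the 9 are not read as a result about the set. The mean level of the adipocyte markers was higher at the end of the course in every arm, and its part in these changes was not tested.

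Dnajb9, an ER-anchored J protein that helps clear misfolded proteins and is raised by the unfolded protein response, ran from 10.19 to 10.66 on the 4 untreated arrays at 0 to 1 h and stood at 11.88, 12.01, 11.95, 11.84 and 12.39 at the 5 late times. In DMSO cells it ran from 10.40 to 10.72 and then stood at 12.13, 12.32, 12.23, 12.18 and 12.58. In prieurianin cells it ran from 10.50 to 10.71 and then stood at 11.96, 12.00, 12.82, 11.51 and 11.66. No late array overlapped the start in any arm, and the rises were 1.60 ± 0.19, 1.71 ± 0.19 and 1.41 ± 0.19 (limma adjusted p = 1.1e-08, 3.1e-09 and 2.7e-07), called under each alternative.

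Among the mitochondrial members, Dnaja3 rose by 1.37 ± 0.16, 0.99 ± 0.16 and 0.90 ± 0.16 in the untreated, DMSO and prieurianin arms (limma adjusted p = 4.9e-09, 3.4e-06 and 1.9e-05). Dnajc4 rose by 0.94 ± 0.12, 0.94 ± 0.12 and 0.97 ± 0.12 (limma adjusted p = 7.9e-08, 7.4e-08 and 5.9e-08). Both were called under each alternative, and of the 5 mitochondrial genes no other was called over the course. Dnaja4, a cytosolic J protein, rose by 1.32 ± 0.22, 1.18 ± 0.22 and 0.77 ± 0.22 (limma adjusted p = 8e-06, 4.7e-05 and 0.0061), with the prieurianin call lost on values as deposited. Its late arrays stood at 10.32, 10.31, 9.84, 9.25 and 9.00 in untreated and at 8.94, 9.05, 8.97, 8.98 and 9.41 in prieurianin cells, a difference of -0.68 ± 0.19 (limma adjusted p = 0.0096) lost without 96 h (-0.50, 0.080), without 144 h (-0.53, 0.075) and in the fit with no time block (0.060). Against DMSO it was at -0.10 (95% interval -0.49 to 0.28). Of the 4 Dnaja genes, 3 were called higher over the course in untreated cells, 3 in DMSO and 2 in prieurianin cells. Hspa12a rose by 1.28, 1.07 and 0.75 (SE 0.24 each), and in the prieurianin arm the call was lost without 0.5 h (0.66, limma adjusted p = 0.058), 144 h (0.58, 0.063) or 240 h (0.62, 0.051).

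Hspa12b was the member that fell furthest over the course in each arm, by 1.33 ± 0.22, 1.33 ± 0.22 and 1.81 ± 0.22 (limma adjusted p = 6.7e-06, 6.7e-06 and 3.4e-08), and it was called under each alternative. Hspb2, read through a dim probe (mean log2 level 6.87), ended at -0.90 ± 0.27, -0.90 ± 0.27 and -1.003 ± 0.27. The untreated call was lost without 144 h (-0.64, limma adjusted p = 0.057) and the DMSO call without 96 h (-0.66, 0.056). Dnajc12, a J protein that serves aromatic amino acid hydroxylases, ended at -0.52, -0.51 and -1.02 (SE 0.18 each). Its untreated call was lost without 0 h (-0.48, limma adjusted p = 0.060), 1 h (-0.43, 0.083) or 144 h (-0.42, 0.069), and its DMSO call without 0 h (-0.45, 0.086), 0.25 h (-0.41, 0.115) or 144 h (-0.39, 0.098). Hspb8 showed a dip and return: it ended 0.62 ± 0.17 above its start in untreated cells (limma adjusted p = 0.0029, not called as deposited), with values of 0.29 ± 0.17 in DMSO and -0.15 ± 0.17 in prieurianin cells that did not pass the test.

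**Figure D2:**
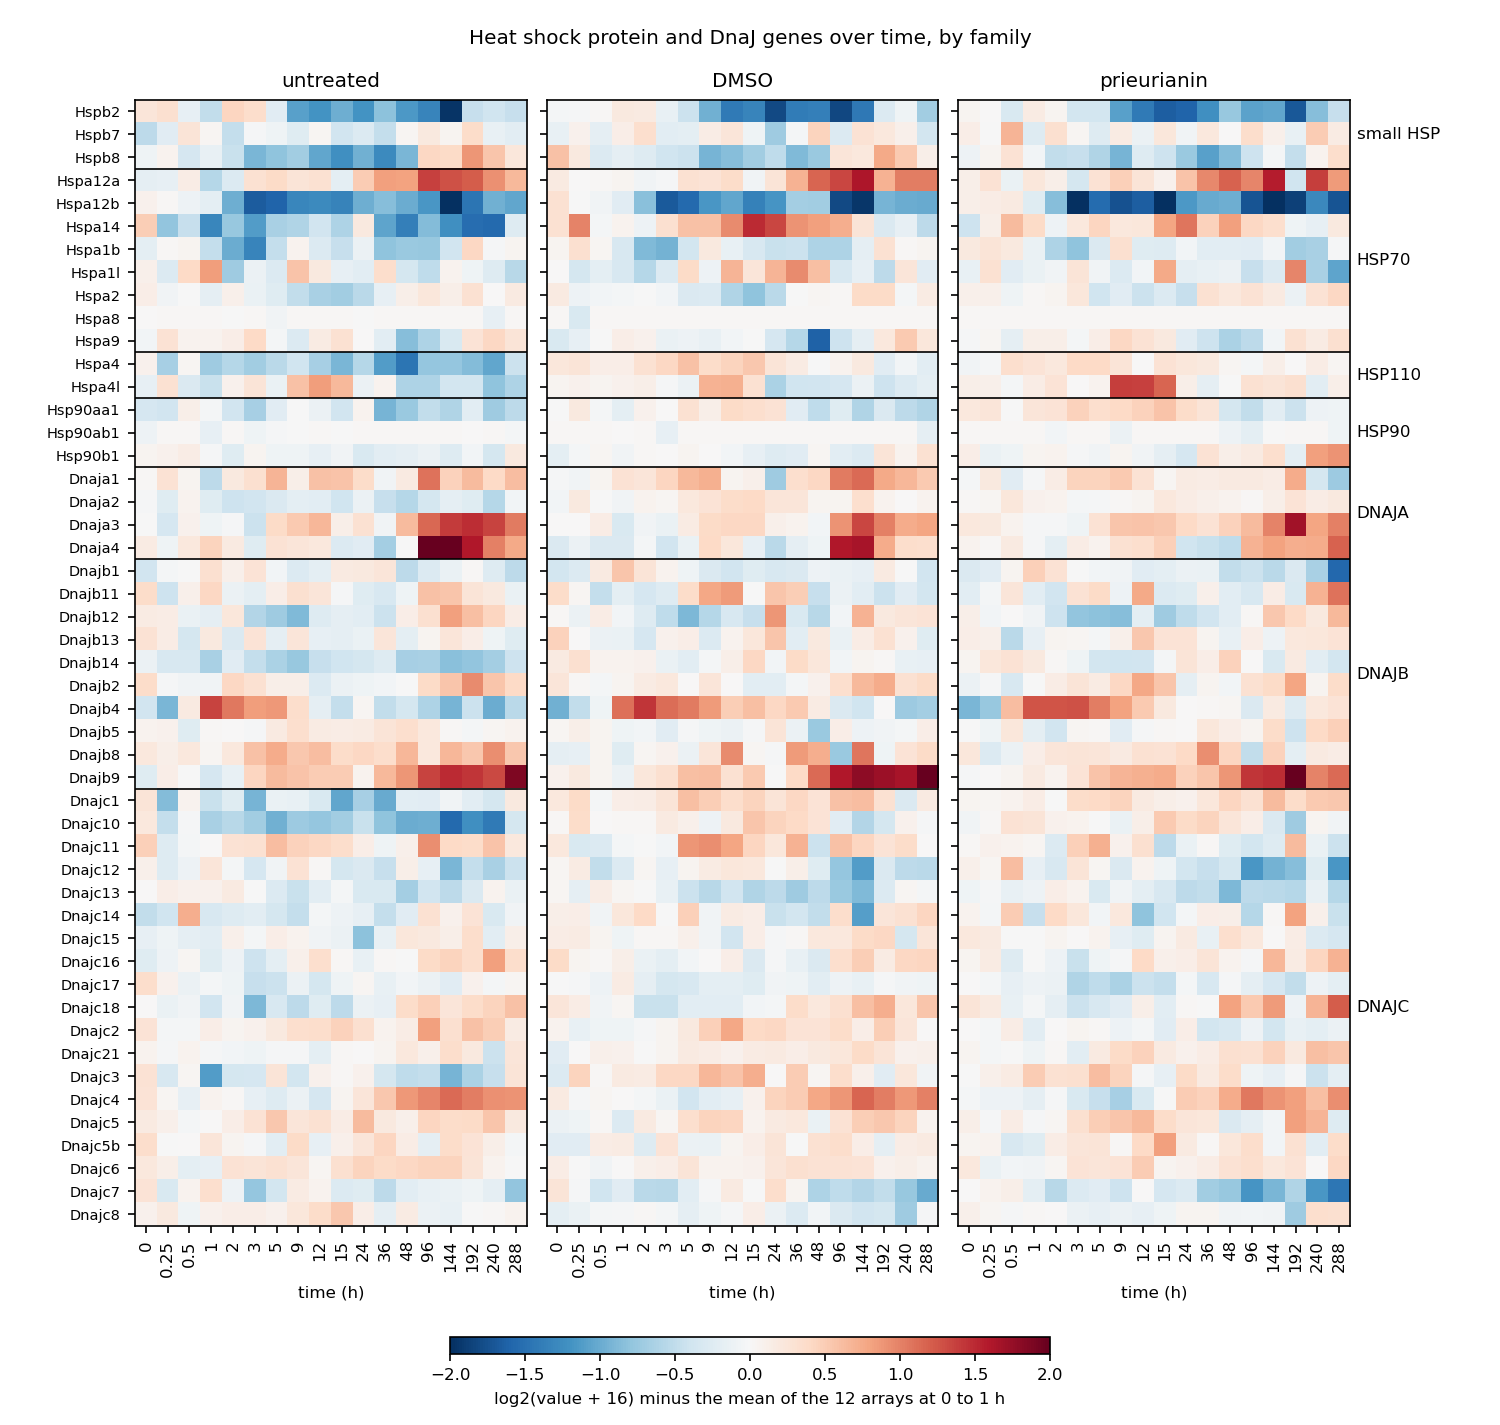
Log2 level of the 49 tested genes at each of 18 times in the untreated, DMSO and prieurianin arms, minus the gene's mean over the 12 arrays at 0 to 1 h, grouped by family; colours stop at 2 in either direction and each cell is 1 array. The late rise of Dnajb9, Dnaja3, Dnaja4 and Dnajc4 and the fall of Hspa12b appear in all arms.

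Prieurianin was set against its vehicle at matched times, which asks whether the compound raised the stress-inducible chaperones or changed their course during differentiation. At 0.25 to 3 h (5 times) limma called 0 members, and 0 of all genes (0%). Among the members 0 had an unadjusted p under 0.05, and among all genes 300 did. The median log2 difference of the 49 members was 0.03, with a range of -0.13 to 0.38. Of the 8 genes listed as heat-inducible, Hspa8 and Hsp90ab1 were left out as saturated on most arrays. For the other 6 (Hspa1b, Hsp90aa1, Hspb8, Dnaja1, Dnajb1 and Dnajb4) the median was 0.08, and the range was -0.08 to 0.23. Hspa1b differed by 0.14, with a 95% interval of -0.14 to 0.43, Dnajb1 by -0.04 (-0.27 to 0.20), and Dnajb4 by 0.11 (-0.20 to 0.42). For these 3 genes, window means rising by more than those upper bounds lay outside the intervals.

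At 5 to 48 h (7 times) 2 members were higher and 4 lower with prieurianin than with DMSO, 12.2% of the 49, where 11.1% of all genes were called, 6.62% higher and 4.51% lower. The median difference of the members was 0.02 and that of all genes -0.01. With median centring the split was 1 higher and 0 lower, and as deposited 2 and 2. Higher were the HSP110 gene Hspa4l and the mitochondrial Hspa9. Lower were Dnajc2, Dnajc7, Dnajc11 and Hspa12b. Of these 6 members, 2 (Dnajc2 and Hspa4l) were also called against untreated cells in this window, in the same direction. Without time as a block, Dnajc2 was the single member still called. Of the 6 readable heat-inducible genes limma called 0, and 0 of the 10 ER genes, and at an unadjusted p under 0.05 the counts were 0 and 1.

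Hspa4l peaked at 9 to 15 h in every arm, and higher with prieurianin. At 9, 12 and 15 h it stood at 10.45, 10.70 and 10.50 in untreated cells. In DMSO cells it stood at 10.56, 10.57 and 10.16, and in prieurianin cells at 11.24, 11.23 and 11.03. The 3 prieurianin arrays lay above all 6 control arrays. It was higher with prieurianin than with DMSO at 7 of 7 times, by 0.53 ± 0.11 (limma adjusted p = 0.0010). No left-out time ended the call, and it was lost without time as a block (0.21, limma). Its second probe, below the filter, differed by 0.81.

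Dnajc2, which with Hspa14 forms the ribosome-associated chaperone pair, was lower at 7 of 7 times. Its 7 DMSO arrays ran from 12.13 through a median of 12.34 to 12.71, and its 7 prieurianin arrays from 11.58 through 11.83 to 12.07, without overlap. The difference was -0.52 ± 0.07 (limma adjusted p = 7e-06), and no left-out time ended the call. Its other 2 probes differed by -0.09 and -0.18, so the difference was seen by 1 of 3 probes. The control rise at 9 to 15 h given above comes from that same probe.

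Hspa9 was higher at 7 of 7 times, by 0.37 ± 0.10 (limma adjusted p = 0.011). The widest gap was at 48 h, with 13.26 in DMSO, 14.24 in prieurianin and 14.03 in untreated cells. Without 48 h the difference was 0.26 (limma adjusted p = 0.061). The lowest of the 3 arrays was thus the DMSO one, and against untreated cells Hspa9 was not called.

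Dnajc11, a J protein of the mitochondrial membranes, ran from 8.26 through 9.39 to 9.62 in DMSO cells and from 8.17 through 8.71 to 9.40 with prieurianin. It differed by -0.47 ± 0.14 (limma adjusted p = 0.025), and its second probe by -0.13. The call was lost without 9 h (-0.40, 0.11), 12 h (-0.47, 0.072), 15 h (-0.39, 0.11) or 36 h (-0.43, 0.062). Hspa12b ran from 8.36 through 8.76 to 9.25 in DMSO cells and from 7.91 through 8.39 to 8.95 with prieurianin. It differed by -0.34 ± 0.11 (limma adjusted p = 0.034), a call lost without 9 h (-0.30, 0.12), 12 h (-0.30, 0.15), 15 h (-0.29, 0.13) or 36 h (-0.34, 0.067). Dnajc7, a co-chaperone that binds both HSP70 and HSP90, differed by -0.35 ± 0.12 (limma adjusted p = 0.047). That call was lost without any one of 0.5, 2, 9, 12, 15, 24, 36, 96, 144, 240 or 288 h, weakest without 36 h (-0.28, limma adjusted p = 0.16), and its second probe, below the filter, differed by -0.07.

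At 96 to 288 h (5 times) 3 members were higher and 6 lower with prieurianin than with DMSO, 18.4% of the 49, where 16.7% of all genes were called, 7.32% higher and 9.36% lower. The members' share was close to that of all genes. With median centring the split was 0 higher and 2 lower, and as deposited 0 and 5, so the higher calls of Hspa4l, Hsp90b1 and Dnajb4 were lost under both of these scalings. Without time as a block, Dnaja1, Dnajb1 and Dnajc2 were still called. Of the 6 readable heat-inducible genes 1 was higher (Dnajb4) and 3 were lower (Dnaja1, Dnajb1 and Hspb8), with a median of -0.36 beside 0.02 for all genes. The adipocyte markers were lower in the same arrays, as given above, and their part in these differences was not tested.

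Dnaja1, a cytosolic J protein induced by heat, was the member with the largest late difference. Untreated cells stood at 7.71, 7.08, 7.26, 7.03 and 7.25 at 96, 144, 192, 240 and 288 h. DMSO cells stood at 7.66, 7.76, 7.38, 7.29 and 7.16, and prieurianin cells at 6.81, 6.78, 7.37, 6.28 and 5.90. The prieurianin array was the lower at each of the 5 times, by least at 192 h, where the arms overlapped. The difference from DMSO was -0.82 ± 0.18 (limma adjusted p = 0.0023), called under each alternative and without each time, and its second probe differed by -1.03. Against untreated cells, which share the prieurianin arrays, it was -0.64 ± 0.18 (limma adjusted p = 0.012), a call lost without 96 h (-0.57, 0.053), 240 h (-0.61, 0.053) or 288 h (-0.46, 0.12). Over the course Dnaja1 rose by 0.68 ± 0.21 in untreated cells (limma adjusted p = 0.0098; 0.52 and 0.080 without 1 h) and by 0.76 ± 0.21 in DMSO cells (0.0040), while in prieurianin cells it differed from its start by 0.03 ± 0.21 (0.94). The difference between these changes was -0.73 ± 0.30 and did not pass the test (limma adjusted p = 0.37). The probe is dim, with a mean log2 level of 6.90.

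Dnajb1 stood at 12.72, 12.86, 13.03, 12.74 and 12.47 in untreated cells at the 5 late times. In DMSO cells it stood at 12.86, 12.83, 13.19, 12.995 and 12.61, and in prieurianin cells at 12.58, 12.46, 12.71, 12.36 and 11.43. The prieurianin array was lower than DMSO at each time, and furthest at 288 h. The difference was -0.59 ± 0.12 (limma adjusted p = 0.00063), kept without each time and lost with median centring (adjusted p = 0.053). Against untreated cells it was -0.46 ± 0.12 (limma adjusted p = 0.0042), and without 288 h -0.31 (0.057). Over the course Dnajb1 fell by 0.70 ± 0.19 in prieurianin cells (limma adjusted p = 0.0044), and in untreated and DMSO cells it differed from its start by -0.21 ± 0.19 and -0.13 ± 0.19 (0.45 and 0.68, limma).

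Hspb8 stood at 12.19, 12.15, 12.64, 12.32 and 12.00 in untreated cells. In DMSO cells it stood at 12.02, 11.98, 12.52, 12.30 and 11.89, and in prieurianin cells at 11.36, 11.73, 11.29, 11.84 and 12.11. Prieurianin cells were lower than DMSO cells at 4 of 5 times and higher at 288 h, where the arms overlapped. The difference from DMSO was -0.47 ± 0.15 (limma adjusted p = 0.032), a call lost without 96 h (-0.43, 0.093), 192 h (-0.29, 0.18) or 240 h (-0.48, 0.095). Against untreated cells it was -0.59 ± 0.15 (limma adjusted p = 0.0052), kept under each alternative.

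Dnajc2 remained low late. It stood at 12.31, 12.07, 12.44, 12.17 and 11.95 in DMSO cells and at 11.83, 11.56, 11.79, 11.73 and 11.82 with prieurianin, without overlap, and the untreated arrays ran from 12.11 to 12.75. The difference from DMSO was -0.44 ± 0.09 (limma adjusted p = 0.00068), and from untreated cells -0.67 ± 0.09 (1.8e-06). The other 2 probes differed from DMSO by 0.08 and 0.10, and the call was lost with the mean of all probes and with median centring.

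Dnajc7 and Hspa12b also stayed lower. Dnajc7 ran from 11.47 to 11.99 in DMSO cells and from 11.04 to 11.87 with prieurianin, a difference of -0.39 ± 0.14 (limma adjusted p = 0.046). The call was lost without 5 h (limma adjusted p = 0.051), 12 h (0.055), 15 h (0.054), 96 h (-0.32, 0.16), 144 h (-0.41, 0.081), 240 h (-0.39, 0.12) or 288 h (-0.38, 0.15). Hspa12b ran from 7.98 to 8.99 with DMSO and from 7.75 to 8.63 with prieurianin, a difference of -0.42 ± 0.13 (limma adjusted p = 0.020). That call was lost without 192 h (-0.29, 0.11), 240 h (-0.45, 0.053) or 288 h (-0.35, 0.15). With Dnajc2 and Hspa4l, these made 4 members called at both 5 to 48 h and 96 to 288 h, each in the same direction, which were 4 of the 6 and 4 of the 9. The windows hold different arrays of the same arms. The same overlap was not counted over all genes, so it is not read as a result about the members.

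The 3 late members above DMSO had different roles. Hspa4l stood at 9.52, 9.75, 9.45, 9.59 and 9.67 in DMSO cells and at 10.18, 10.12, 10.19, 9.65 and 9.98 with prieurianin. It was higher at 5 of 5 times, by 0.43 ± 0.13 (limma adjusted p = 0.018), and its second probe by 0.44. The call was lost without 96 h (0.37, 0.073), 192 h (0.35, 0.064) or 288 h (0.46, 0.054).

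Hsp90b1, the HSP90 of the ER, stood at 13.87, 13.80, 14.34, 14.14 and 14.38 in DMSO cells and at 14.25, 14.41, 13.87, 14.89 and 14.98 with prieurianin. The 192 h array was below its DMSO match and the other 4 were above. The difference was 0.38 ± 0.12 (limma adjusted p = 0.032), a call lost without 96 h (0.37, 0.059), 144 h (0.32, 0.13), 240 h (0.28, 0.17) or 288 h (0.32, 0.17).

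Dnajb4 stood at 10.41, 10.31, 10.71, 9.98 and 10.03 in DMSO cells and at 10.41, 10.89, 10.44, 10.92 and 10.98 with prieurianin. Prieurianin cells were higher at 144, 240 and 288 h and not at 96 or 192 h. The difference was 0.44 ± 0.15 (limma adjusted p = 0.043), lost without 2, 3, 9 or 48 h (0.051) and without 144 h (0.40, 0.11), 240 h (0.31, 0.26) or 288 h (0.31, 0.29).

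All 9 of these members were also called against untreated cells in the late window, in the same direction. That comparison shares the prieurianin arrays and called 10 members higher and 9 lower, 38.8% of the 49, where 22% of all genes were called, 11.4% higher and 10.5% lower. As deposited its split was 5 higher and 14 lower, and with median centring 5 and 7. The comparison also holds the untreated arrays, which differed from DMSO cells too. Hspa4, Hspa14 and Dnajc10, at 0.83, 1.22 and 0.93, were among the 10 higher members. They were also called higher with DMSO than in untreated cells late, by 0.73, 1.08 and 0.88. The 38.8% is thus not read as a result about prieurianin alone. Leaving out 192 h, where the prieurianin array stood apart, gave 12 members called against DMSO (6 higher and 6 lower) in place of 9. The share of all genes called without 192 h is not given here, so the larger count is not read as a result about the members.

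**Figure D3:**
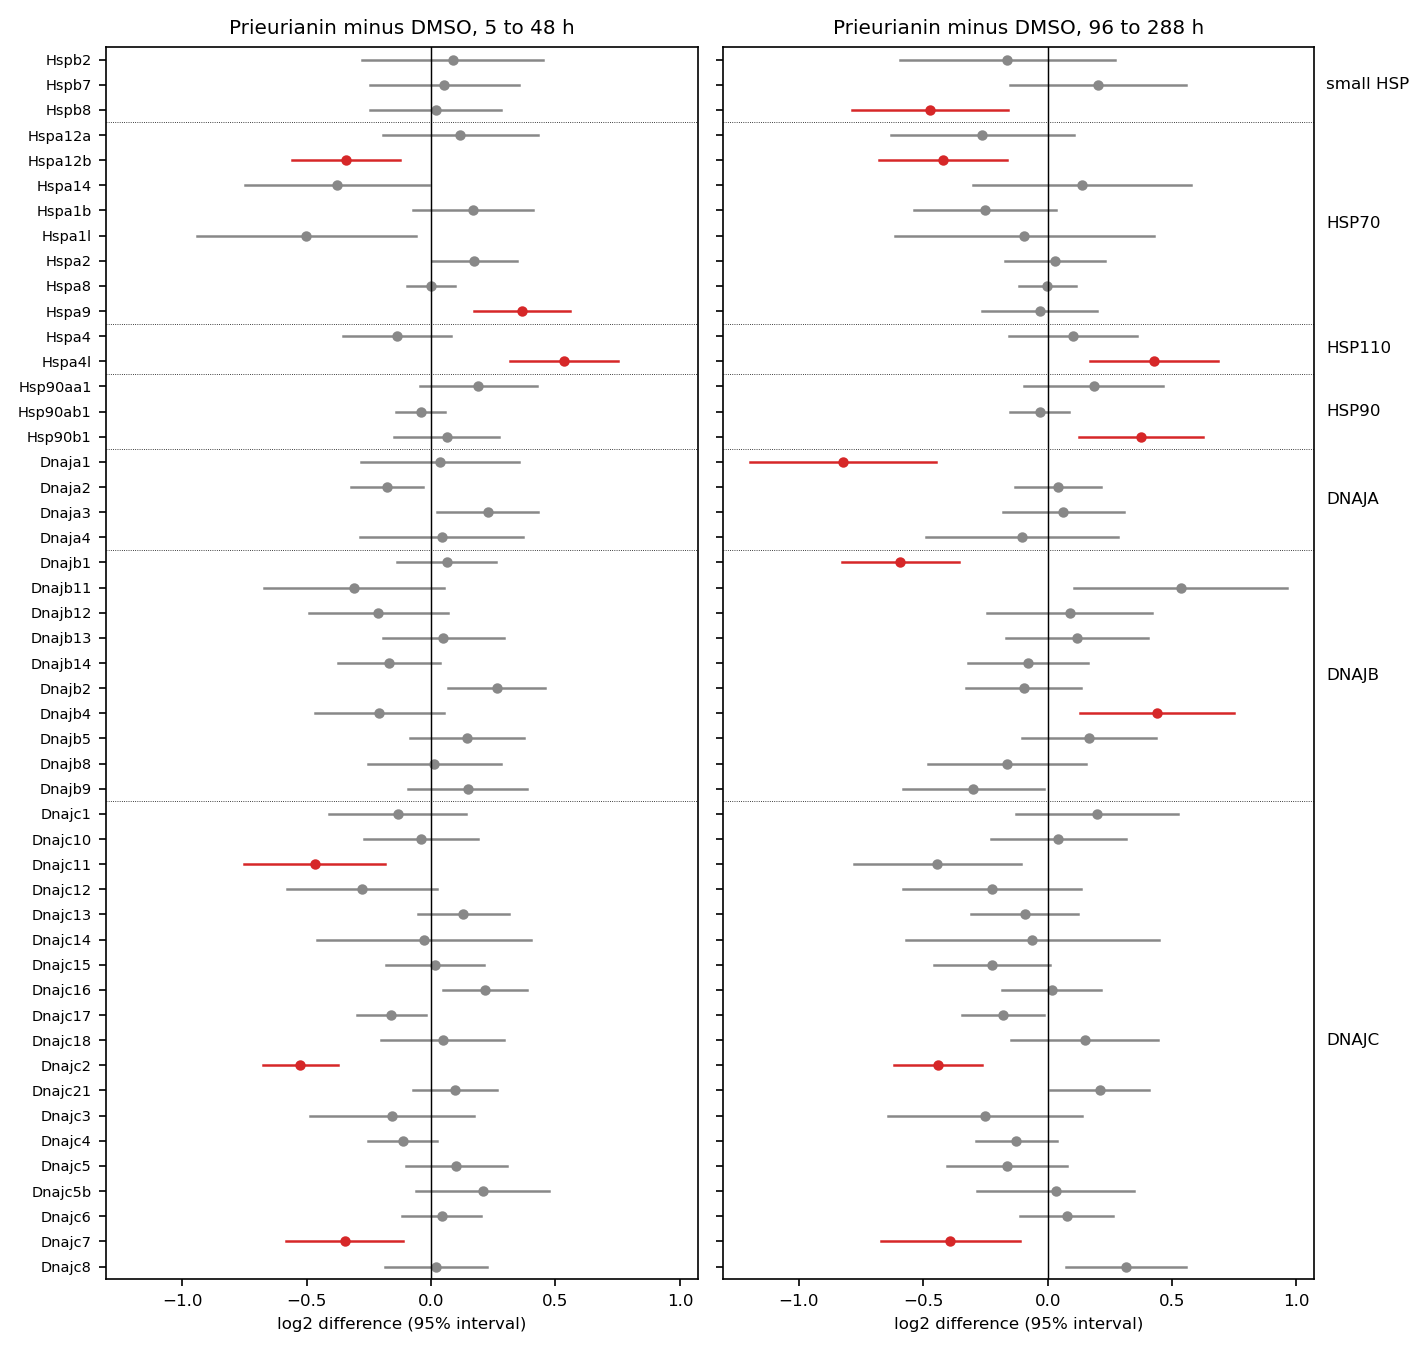
Log2 difference, prieurianin minus DMSO, for the 49 tested genes at 5 to 48 h (7 times) and 96 to 288 h (5 times), with 95% intervals from limma; red marks an adjusted p under 0.05. Hspa4l lies to the right and Dnajc2, Dnajc7 and Hspa12b to the left in both windows, and Dnaja1 (-0.82) and Dnajb1 (-0.59) lie furthest left in the late window.

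Whether the difference from DMSO itself changed between the windows was tested as an interaction. It called 1 member higher and 2 lower, where 6.74% of all genes were called, 2.86% higher and 3.88% lower. For Dnaja1 the difference moved by -0.86 ± 0.24 (limma adjusted p = 0.030). That call was lost without 12 h (-0.83, 0.067), 15 h (-0.87, 0.051), 24 h (-0.72, 0.056), 240 h (-0.81, 0.096) or 288 h (-0.75, 0.12). For Dnajb1 it moved by -0.65 ± 0.15 (0.011, limma), and without 288 h by -0.51 (0.068). For Dnajb4 it moved by 0.65 ± 0.20 (0.044, limma), a call lost without any one of 0.25, 2, 3, 9, 12, 15, 24, 36, 144, 240 or 288 h, down to 0.52 (limma adjusted p = 0.19) without 288 h. All 3 calls were lost with median centring, as deposited and without time as a block. In the change from 0 to 1 h to the late window, prieurianin and DMSO differed in 0 members, where 0.469% of all genes were called, and with time as a block in 1 member.

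Among the 10 ER members, Hsp90b1 was the single late call against DMSO. Dnajb11, an ER J protein that partners the ER HSP70, was 0.54 higher (95% interval 0.11 to 0.96, limma adjusted p = 0.078). Dnajb9 was at -0.30 (-0.58 to -0.02, 0.14), and Dnajc3, an ER J protein also known as an inhibitor of the kinase Perk, at -0.25 (-0.64 to 0.14, 0.41). The ER members thus had no common direction. Of the 5 mitochondrial members 0 were called late, and Dnajc15, a J protein of the mitochondrial import motor, was at -0.22 (-0.46 to 0.01, limma adjusted p = 0.18). Hsp90aa1, the inducible cytosolic HSP90, was at 0.18 (-0.09 to 0.46, 0.39), and Hspa1b at -0.25 (-0.54 to 0.03, 0.23).

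The untreated arm differed from both treated arms in a set of members, already in the first hours. DMSO minus untreated called 7 members higher and 0 lower at 0.25 to 3 h (14.3% of 49), where 3.54% of all genes were called, 3.13% higher and 0.407% lower. It called 9 higher and 2 lower at 5 to 48 h, where 20.3% were called (9.47% and 10.8%), and 5 higher and 0 lower at 96 to 288 h, where 3.65% were called (3.14% and 0.508%). Prieurianin minus untreated, which shares the untreated arrays, called 8 higher and 0 lower early, where 5.93% of all genes were called (4.16% and 1.77%). At 5 to 48 h it called 11 and 2, where 28.5% were called (13% and 15.5%). With median centring or as deposited, the early splits were 2 higher and 0 lower in both comparisons. At 5 to 48 h, median centring gave 5 higher and 4 lower for DMSO, and as deposited 6 higher and 3 lower for prieurianin.

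Hspa4, the HSP110 exchange factor of the cytosol, shows the pattern. At 0 h it stood at 12.41 in untreated, 12.55 in DMSO and 12.25 in prieurianin cells. At 5 to 48 h it ran from 10.87 to 11.92 in untreated cells and from 12.32 to 12.91 in DMSO cells. The arms did not overlap in that window, and Hspa4 was higher in DMSO than in untreated cells at all 17 times after 0 h. The differences were 0.77 ± 0.13, 1.14 ± 0.11 and 0.73 ± 0.13 in the 3 windows (limma adjusted p = 0.00064, 1.3e-08 and 0.0011), and the late one was lost with median centring and as deposited. Prieurianin minus untreated gave 0.76, 1.01 and 0.83 for the same windows.

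Hspa14, the ribosome-bound HSP70 partner of Dnajc2, differed by 1.14 ± 0.22, 1.59 ± 0.18 and 1.08 ± 0.22 (limma adjusted p = 0.0022, 1.7e-07 and 0.0034) between DMSO and untreated cells, and the late call was lost on values as deposited. Dnajc10, an ER J protein with disulphide reductase activity, differed by 0.59, 1.04 and 0.88. Its early call was lost without 0.25 h (0.53, limma adjusted p = 0.094) or 3 h (0.52, 0.11), and its second probe differed by 0.46 at 5 to 48 h. Dnajb14, an ER membrane J protein, differed by 0.48, 0.63 and 0.61, with the early call lost without 0.25 h (0.44, 0.14), 1 h (0.42, 0.10) or 3 h (0.51, 0.067). Dnaja2, a cytosolic J protein, differed by 0.29, 0.58 and 0.38, the late call being lost without 144 h (0.35, 0.058) or 240 h (0.34, 0.072), and its second probe differed by 0.15 at 5 to 48 h. These 5 were the members called in all 3 windows, and this depends on the scaling. With median centring Hspa14 alone was called in every window, and as deposited none was. The late calls fell from 5 to 2 and 1 under these scalings, with those of Hspa4, Dnajb14 and Dnaja2 lost under both. The early calls of Dnajc10 and Dnajb14 were lost under both scalings and without time as a block.

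Hsp90aa1, a client-folding HSP90 of the cytosol, ran from 14.04 through a median of 14.75 to 15.04 in untreated cells at 5 to 48 h. In DMSO cells it ran from 14.47 through 15.26 to 15.36, and in prieurianin cells from 14.62 through 15.33 to 15.55. The 3 arms overlapped, with the untreated median lowest. DMSO minus untreated was 0.43 ± 0.12 (limma adjusted p = 0.0070), lost with median centring, as deposited and with the mean of all probes, and prieurianin minus untreated was 0.62 ± 0.12 (0.00012). The latter kept its call under each alternative but came down to 0.23 (limma adjusted p = 0.023) with the mean of all probes. The other bright probe differed by 0.02 between DMSO and untreated cells at 5 to 48 h, and by -0.25 between prieurianin and untreated cells late, where the tested probe gave 0.24, so the probes disagreed. Dnajc1, an ER membrane J protein, was 0.90 ± 0.13 above untreated cells with DMSO and 0.77 ± 0.13 with prieurianin at 5 to 48 h (limma adjusted p = 1.1e-05 and 6.3e-05), both kept under each alternative. Dnajc3 was 0.53 ± 0.16 above untreated cells with DMSO at 5 to 48 h (0.019, limma), a call lost without 9 h (0.44, 0.069) or 36 h (0.47, 0.075). Dnajb4 was above untreated cells at 5 to 48 h by 0.62 with DMSO and by 0.41 with prieurianin (limma adjusted p = 0.00065 and 0.015). Both calls were lost with median centring and without time as a block. The prieurianin call was also lost as deposited and without 12 or 15 h.

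Averaged over the 5 members called in all windows, DMSO exceeded untreated cells by 0.0027 on the 0 h arrays, 0.92 at 0.25 h and 0.17 at 0.5 h. The average reached 1.28 at 15 and 48 h, was 0.99 at 240 h and came down to 0.13 at 288 h. These members were picked by the same differences after 0 h, so the size of the average there follows in part from the choice. For them, the untreated arrays at 0, 0.5 and 288 h lay with the DMSO arm, and most others lay below it. DMSO itself and anything that handled these untreated arrays in another way cannot be told apart. For these members prieurianin and DMSO were not called apart in any window.

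**Figure D4:**
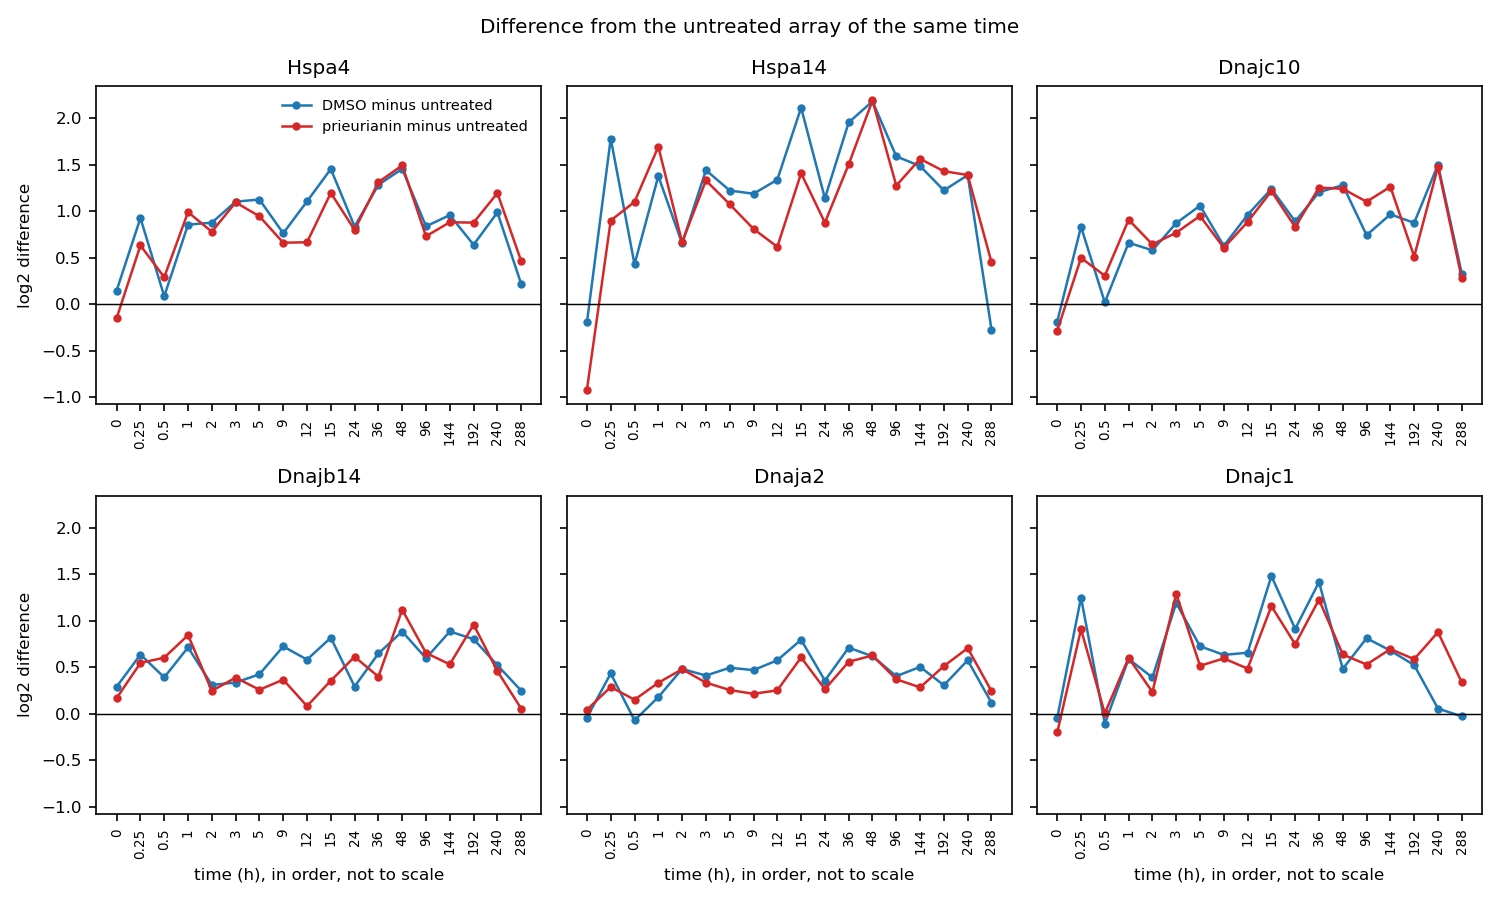
Log2 difference of DMSO (blue) and prieurianin (red) from untreated cells at each of the 18 times for Hspa4, Hspa14, Dnajc10, Dnajb14, Dnaja2 and Dnajc1, with 1 array per arm and time. The differences lie above 0 at most times after 0 h and approach 0 at 0.5 and 288 h for several genes.

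Among other genes of the chaperone system outside the named families, Bag2 was higher with prieurianin than with DMSO in both later windows. With prieurianin against DMSO at 5 to 48 h, 2 of 13 HSP70 co-chaperones were higher and 0 lower, 0 of 13 HSP90 co-chaperones were higher and 1 lower, 0 of 13 other folding genes were higher and 2 lower, and 0 of 3 heat shock factors were called, where 11.1% of all genes were called. At 96 to 288 h the counts were 1 and 1, 0 and 1, 0 and 1, and 0 and 1, where 16.7% of all genes were called. The lists were not tested against these shares. Bag2, a nucleotide exchange factor that inhibits the ubiquitin ligase Chip, ran from 10.37 through 11.14 to 11.45 in DMSO cells and from 11.51 through 12.60 to 13.26 with prieurianin at 5 to 48 h. The arms did not overlap. The difference was 1.34 ± 0.19 (limma adjusted p = 6.3e-06), called under each alternative, and late it was 0.86 ± 0.22 (0.0069), lost without 240 h (0.65, 0.091) or 288 h (0.77, 0.063). Hsf1, the heat shock factor itself, was -0.34 ± 0.11 late (limma adjusted p = 0.032), lost without 144 h (-0.32, 0.097), 240 h (-0.28, 0.16) or 288 h (-0.39, 0.056). That call was also lost with median centring, as deposited and without time as a block. Ahsa1, which activates the HSP90 ATPase, was -0.35 ± 0.08 at 5 to 48 h (0.0050, limma), lost with median centring and as deposited.

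In the control arms Bag3, the partner of Hspb8, rose by 1.15 ± 0.14 at 2 to 5 h (limma adjusted p = 1.8e-08), the hours in which Hspb8 fell. Fkbp5, an HSP90 co-chaperone and a known glucocorticoid target, rose by 1.71 ± 0.40 at 2 to 5 h (limma adjusted p = 0.0010) and stood 2.88 ± 0.49 above its start in late untreated cells (1e-05). Both were called under each alternative. Of the 13 HSP90 co-chaperones 4 were higher and 1 lower at 2 to 5 h, where 24.4% of all genes were called, and 6 and 2 at 9 to 15 h, where 34.3% were called. Of the 13 HSP70 co-chaperones 3 and 1, and 5 and 1, were called in the same windows.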

How the data were processed

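Total RNA of each of 54 samples was amplified, labelled with Cy5 and hybridised to a 1-colour mouse oligonucleotide array, per the labels' protocols. The authors' deposited table holds linear intensities per probe, whole numbers from -83 to 65497 with 0.466% below 0. Scaling and background steps behind them are not given in the sources used here, so depth is known only through their brightness. Values were quantile-normalised, set to a floor of 0 and transformed to log2(value + 16). Symbols came from the platform annotation, updated through RefSeq (2 members, Dnajb2 and Dnajc3). Each gene was read through its probe with the highest mean, and 15 members had several. Genes whose mean exceeded the 25th percentile over gene probes were tested with limma 3.58.1 in R 4.3.3. The model of arms held time as a factor (block) and an arm effect per window (51 arrays, 28 residual degrees of freedom), since arms share times and each arm has 1 array per time. The model of the course held a mean per arm and phase (54 arrays, 39 residual degrees of freedom). Both were run on simulated data with independent noise on each array and shifts in late prieurianin arrays, for prieurianin against DMSO. An offset of the untreated arm and likeness between neighbouring arrays were not simulated, so no error rate for these data follows. Saturated means within 50 units of an array's highest value.

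Members, gene lists and windows were chosen with earlier results of these data known. Named genes were a list of stress, ER and mitochondrial chaperones and, per comparison, the 6 called members with the largest rise and the 6 with the largest fall. Bag2, Bag3, Fkbp5, Hsf1 and Ahsa1, outside the set, were picked after their values were seen. Alternatives were 2 other scalings, a pseudocount of 64, no filter, the mean of a gene's probes, saturated values left out, other blocks, each pair of arms alone, a first phase of 0 to 3 h, and each time left out.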

Additional observations from a re-analysis of the deposited data

Results flagged for a closer look

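In 111 sets of member and window, the difference between prieurianin and DMSO was examined for a single time far from the others. Chance marks about 1 in 20 such sets, and 5 stood out here, all at 5 to 48 h. These were Dnaja1 at 24 h (0.88, where the DMSO array was low), Dnajb1 at 48 h (-0.38), Dnajb12 at 24 h (-1.39), Dnajc4 at 9 h (-0.45) and Hsp90b1 at 36 h (0.51). Each is 1 array per arm. In a test of the interaction, the difference from DMSO moved between 5 to 48 h and 96 to 288 h for Dnaja1 (-0.86), Dnajb1 (-0.65) and Dnajb4 (0.65).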

How the results depend on the processing

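With median centring of log2 values, the members called were 1 (prieurianin minus DMSO, 5 to 48 h) and 2 (96 to 288 h), 2, 6 and 12 for prieurianin minus untreated in the 3 windows, 2 and 2 for DMSO minus untreated early and late, 0 for the late minus middle interaction, 10 and 10 for the DMSO and prieurianin courses, and 5 for the controls at 2 to 5 h. On values as deposited they were 5 for prieurianin minus DMSO late, 2 for prieurianin minus untreated early, 2 and 1 for DMSO minus untreated early and late, 0 for the interaction and 25 for the controls at 2 to 5 h. Without time as a block (no replicate block) they were 1 and 3 for prieurianin minus DMSO at 5 to 48 and 96 to 288 h, 12 for prieurianin minus untreated late, 4 for DMSO minus untreated early and 0 for the interaction. With the replicate block, prieurianin and DMSO differed in their change over the course in 1 member. A fit of 2 arms alone gave 5 (prieurianin minus DMSO late), 5 (prieurianin minus untreated early) and 4 and 9 (DMSO minus untreated early and late).

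Leaving out each time in turn gave 3 to 7 and 4 to 12 calls for prieurianin minus DMSO at 5 to 48 and 96 to 288 h, 0 to 7 for the interaction and 0 to 0 for the change over the course. For prieurianin minus untreated it gave 4 to 8, 9 to 16 and 15 to 22, and for DMSO minus untreated 2 to 7, 9 to 12 and 4 to 7. The courses gave 15 to 21 (untreated), 12 to 16 (DMSO) and 12 to 19 (prieurianin), and the controls 5 to 9, 10 to 15 and 7 to 14 at 2 to 5, 9 to 15 and 24 to 48 h. The lowest counts came without 9, 12, 15 or 36 h (3) and without 240 or 288 h (4) for prieurianin minus DMSO, without 0.25 or 3 h (2) for DMSO minus untreated early, without 3 h (5) and 48 h (7) for the controls, and without 0.5 h (12) for the prieurianin course. Among 147 named results, 384 of 3635 alternative values missed the threshold, 2 reversed and 64 results kept their call throughout. The reversals were on values as deposited, Dnajc6 at 2 to 5 h (-0.24) and Dnajc2 at 24 to 48 h (-0.0431) in the controls. The causes were not tested. The counts of members in this section stand without the share of all genes called under the same setting. They are thus not read as results about the members. With 1 array per arm and time, precision is limited by the number of times, and dim and saturated probes limit what their signal can show.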
